A study of Bos taurus with 34 samples.

Results

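The mitochondrial genome genes were taken as every gene placed on chromosome MT in the gene annotation of the SMARTer count table, which gave 37 of the 27607 genes counted. They comprise 13 mRNA genes with a symbol in the files, 2 long genes without one (955 and 1571 bases) and 22 short genes without one (60 to 75 bases). RefSeq, on the ARS-UCD2.0 assembly, lists 13 protein-coding, 2 rRNA and 22 tRNA genes on this chromosome, and its rRNA genes have those same 2 lengths. The long genes are therefore called 12S and 16S rRNA here, and the short ones tRNA genes, which are named by position because the files give them no amino acid. The same gene identifiers were read from the TruSeq count table.

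Liver RNA of Senepol cattle was sequenced in 2 experiments on the SLICK1 allele of PRLR, the prolactin receptor gene. In the SMARTer experiment, which used a stranded total RNA kit, 11 samples carried 2 copies of the allele (S2) and 5 samples carried 1 copy (S1), so that every animal of that experiment carried the allele. In the TruSeq experiment, which used a stranded mRNA kit, daughters of 2 slick bulls carried 1 copy (SLICK, 10 samples, 5 by the sire Blanco and 5 by the sire Ranger) or 0 copies (FREE, 8 samples, 1 by Blanco and 7 by Ranger). All FREE samples except 1 thus share a sire, and genotype and sire overlap. Ages were not given in the labels, and sex was given only by the word daughters in the TruSeq experiment.

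The mitochondrial genome of mammals encodes core subunits of the respiratory chain and of ATP synthase, together with the rRNAs and tRNAs that translate them inside the organelle. Both strands are transcribed as long precursors, which are cut mainly at the tRNAs that lie between the other genes. The hepatocyte is rich in mitochondria, which carry out fatty acid oxidation, steps of the urea cycle and oxidative phosphorylation. In human cells most mitochondrial mRNAs carry short poly(A) tails, and the ND6 mRNA is the known exception. Poly(A) selection enriches RNA by such tails, whereas total RNA kits deplete rRNA and keep transcripts without a tail.

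The 37 genes lay between positions 364 and 15791 of chromosome MT in the ARS-UCD1.2 assembly. Of 36 neighbouring pairs, 35 were separated by 5 bases or less or overlapped. On the + strand lay 12 of the mRNA genes, both rRNA genes and 14 tRNA genes. The − strand held ND6 and 8 tRNA genes. ATP8 (8129 to 8329) shared 40 bases, 19.9% of its length, with ATP6 (8290 to 8970). ND4L shared 7 bases with ND4 on the same strand, and ND5 shared 17 bases with ND6 on the opposite strand. The header of the SMARTer table shows counting by strand, without the options that count a read for more than 1 gene or a read with several map positions. The sources used here do not say how the TruSeq reads were counted, so the values of overlapping genes, ATP8 above all, are uncertain. Reads that reach into a neighbouring gene can also be lost to such counting, which may touch the short tRNA genes. The size of this loss was not tested.

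No label matches the animal numbers that head the columns of the count tables. A library could thus be tied to its kit but not to its genotype. Libraries are therefore numbered by their place in the table and described by their lowest, median and highest values, without any test between genotypes. The total was 63795299 to 96098600 counts in the 16 SMARTer libraries (median 76184842) and 93024441 to 154949152 counts in the 18 TruSeq libraries (median 120299296). The SMARTer and TruSeq tables had 0 animal numbers in common. Kit, animals, genotype and counting cannot be told apart in any contrast of SMARTer with TruSeq. Fewer mitochondria or cells of a type and less RNA per cell cannot be told apart in such bulk samples.

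SMARTer libraries 6 and 12 went against the liver label that all 16 SMARTer samples carry. Albumin (ALB), the main secretory product of hepatocytes, had 0.666 CPM, the gene's count scaled to a common library total, in library 6 and 1257 CPM in library 12, against 25028 to 32421 CPM in the other 14 SMARTer libraries. Among the 11 hepatocyte markers, 8 in library 6 and 11 in library 12 lay under 0.1 of the kit's median, against at most 1 in any of the other 14. In library 6 the apolipoproteins APOA1 (12876 CPM) and APOB (13893 CPM) were instead the highest of the SMARTer libraries. The 7 cholangiocyte markers summed to 998.6 CPM in library 6 and 2.04 CPM in library 12, against 9.18 to 68.0 CPM in the other 14. EPCAM (433.1 CPM) and KRT19 (407.5 CPM) carried most of the sum in library 6, while SPP1 (0.786 CPM) lay within the other 14. The 6 stellate cell and fibroblast markers summed to 926.5 CPM in library 6 and 136.3 CPM in library 12, against 221.9 to 472.1 CPM in the other 14. COL3A1 (518.3 CPM) carried most of the sum in library 6. There DCN (6.68 CPM) lay under the other 14 (34.2 to 52.9 CPM), and PDGFRB (28.9 CPM) lay within them. In library 12, COL1A1 (40.0 CPM), COL1A2 (37.9 CPM) and LUM (4.16 CPM) lay within the other 14. The 7 skeletal muscle markers summed to 23.5 CPM in library 6, of which ACTA1 had 22.4 CPM, and to 2.24 CPM in library 12, against at most 0.611 CPM in the other 14. The 6 erythroid markers summed to 0.973 CPM in library 6 and 156.2 CPM in library 12, against 0.107 to 1.51 CPM in the other 14. HBB alone had 147.3 CPM of the sum in library 12, while AHSP (0.215 CPM) lay within the other 14. Summed Kupffer cell and macrophage markers were 123.2 CPM in library 6 and 300.3 CPM in library 12, against 552.5 to 1401 CPM in the other 14. In library 12, however, CD68 (47.6 CPM) lay above the other 14 (12.5 to 30.2 CPM). CSF1R (72.0 CPM) lay within them (43.5 to 86.6 CPM). The TruSeq libraries had 32916 to 74552 CPM of ALB, and 0 of their hepatocyte markers lay under 0.1 of the kit's median in any library. Because of these markers, SMARTer values are given over all 16 libraries and the main ones also without libraries 6 and 12, a choice made after seeing the data.

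Mitochondrial genes made up a larger share of the SMARTer libraries than of the TruSeq libraries, and the classes of RNA behind the share differed. All 37 genes took 12.3% to 38.1% of the counts in the SMARTer libraries (median 14.96%) and 4.203% to 7.904% in the TruSeq libraries (median 6.21%). The 2 ranges did not overlap. The order of the kits rested on the rRNA genes, since without them the median share was 2.76% in SMARTer and 6.165% in TruSeq. With counts divided by gene length the medians were 13.5% in SMARTer and 11.6% in TruSeq. The highest SMARTer shares were those of libraries 12 (38.1%) and 6 (20.2%), and without these 2 the SMARTer range was 12.3% to 17.75% with a median of 14.5%. Counting error was small beside these ranges, since the widest 95% Wilson interval reached 0.0114 percentage points to either side in SMARTer and 0.00510 in TruSeq. These intervals cover counting error only, as reads are not independent molecules.

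The rRNA genes carried most of the SMARTer share and little of the TruSeq share. 12S and 16S rRNA, the RNAs of the small and large mitochondrial ribosomal subunits, together took 9.78% to 33.8% of the counts in the SMARTer libraries (median 12.35%), or 9.78% to 15.2% (median 11.99%) without libraries 6 and 12. In the TruSeq libraries they took 0.0376% to 0.0754% (median 0.0529%). The 13 mRNA genes took 1.88% to 4.27% of the counts in SMARTer (median 2.38%), or 1.88% to 2.88% (median 2.26%) without libraries 6 and 12, against 4.17% to 7.85% in TruSeq (median 6.16%). Only library 12 reached the TruSeq range in its mRNA share. With the mitochondrial rRNA genes left out of the total, the mRNA share was 2.11% to 6.45% in SMARTer (2.11% to 3.28% without libraries 6 and 12) and 4.17% to 7.86% in TruSeq. The 22 tRNA genes took 0.0103% to 0.119% in SMARTer (median 0.0174%, or 0.0230% without libraries 6 and 12) and 0.000287% to 0.000606% in TruSeq (median 0.000452%).

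**Figure D1:**
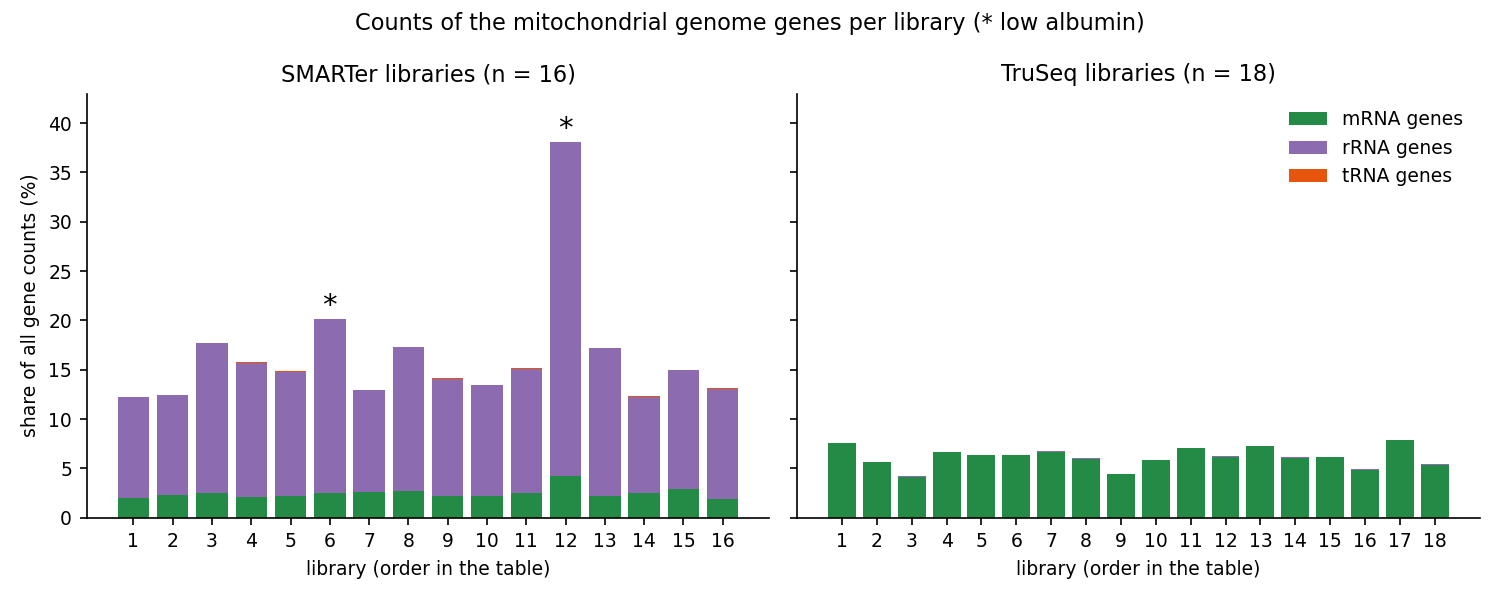
Stacked bars give the share of all gene counts (%) taken by the mitochondrial mRNA, rRNA and tRNA genes in each library, SMARTer on the left and TruSeq on the right, with asterisks over SMARTer libraries 6 and 12. rRNA genes form most of each SMARTer bar and library 12 reaches 38.1%, while the TruSeq bars consist almost wholly of mRNA genes and end between 4.203% and 7.904%.

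Among the mRNAs, COX1, the catalytic core subunit of cytochrome c oxidase (complex IV), was the highest in both kits. Levels of different genes are compared here as CPM per kilobase of gene length. COX1 (ENSBTAG00000043561, MT 5687 to 7231) had 3999 to 10018 CPM per kilobase in the SMARTer libraries (median 5638, highest in library 12, or 7056 without libraries 6 and 12) and 12468 to 22146 in the TruSeq libraries (median 18763). It lay above the next gene of its kit in 16 of 16 SMARTer and 18 of 18 TruSeq libraries. Its counts were 36.2% of those of the 13 mRNAs in the median SMARTer library (36.05% without libraries 6 and 12) and 46.8% in the median TruSeq library.

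The order below COX1 differed between the kits. In SMARTer, the median levels per kilobase were 3089 CPM for ATP6 (ATP synthase), 2513 for CYTB (complex III), 2468 for COX3 (complex IV) and 2377 for ATP8 (ATP synthase). COX3 exceeded ATP8 in only 9 of 16 SMARTer libraries and in 7 of the 14 without libraries 6 and 12, so their order did not hold beyond the spread. The complex I subunit ND1 followed with 1744 CPM per kilobase, COX2 (complex IV) with 1442, ND5 with 1157, ND4 with 1096 and ND3 with 978. ND5 lay above ND4 in 11 of 16 SMARTer libraries, and ND4 above ND3 in 12 of 16. ND2, ND4L and ND6, all subunits of complex I, were lowest in SMARTer at 650, 453 and 316 CPM per kilobase, and each lay above the next in 16 of 16 libraries, ND2 over ND4L and ND4L over ND6. Without libraries 6 and 12 the medians were 5555 CPM per kilobase for COX1, 3052 for ATP6, 2376 for COX3, 1694 for ND1, 1420 for COX2, 1089 for ND4, 628 for ND2 and 435.5 for ND4L, and COX3 and ATP8 alone changed places.

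In TruSeq the second gene was COX3 with a median of 8102 CPM per kilobase, ahead of ATP6 with 6850 in 18 of 18 libraries. ND3 (5866) and COX2 (5856) came next, and ND3 lay above COX2 in 7 of 18 libraries, so these neighbours were not separated. CYTB followed with 4427 CPM per kilobase, ND1 with 3875, ND4 with 2374, ND2 with 1385 and ND5 with 988. ND4L (774) lay above ATP8 (587) in 15 of 18 libraries. ND6 was lowest by far with 35.1 CPM per kilobase, under ATP8 in 18 of 18 libraries.

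**Figure D2:**
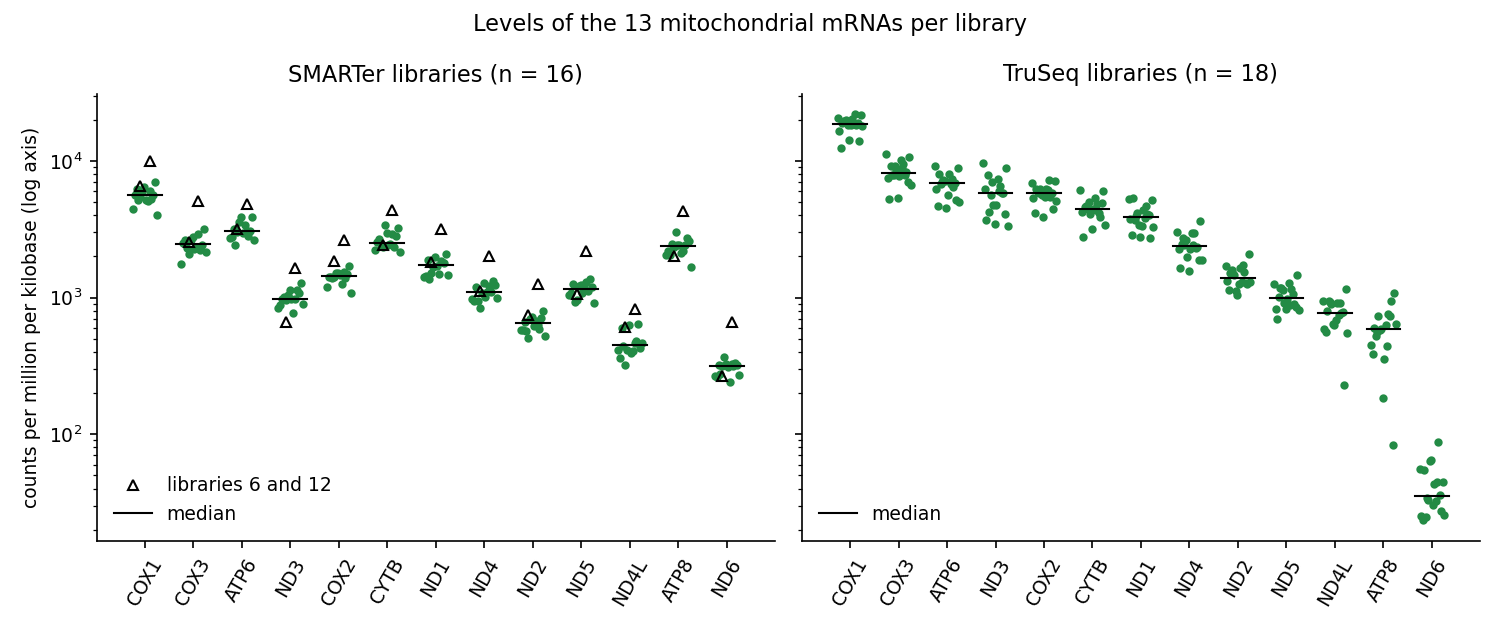
Levels of the 13 mRNAs in CPM per kilobase (log axis) are shown for each library, SMARTer on the left and TruSeq on the right, with genes in the order of their TruSeq medians. Points are libraries, lines are medians and triangles mark SMARTer libraries 6 and 12; the median of ND6 is 316 in SMARTer and 35.1 in TruSeq, and that of ATP8 is 2377 in SMARTer and 587 in TruSeq.

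ND6, the one mRNA encoded on the − strand, had the widest ratio between the kits among the mRNAs. It had 126.3 to 347.4 CPM in the SMARTer libraries (median 166.6, highest in library 12, or 193.0 without libraries 6 and 12) and 12.4 to 46.0 CPM in the TruSeq libraries (median 18.5). The ranges did not overlap, and the medians stood at a ratio of 8.997, SMARTer over TruSeq. ND6 (ENSBTAG00000043546, MT 13913 to 14440) made up 0.692% of the counts of the 13 mRNAs in the median SMARTer library (0.558% to 0.813%) and 0.0298% in the median TruSeq library (0.0206% to 0.0773%). Per base, its level was 0.264 of that of its neighbour ND5 in the median SMARTer library (0.194 to 0.331) and 0.0338 in the median TruSeq library (0.0211 to 0.0817). The highest TruSeq ratio, in library 14, thus lay under the lowest SMARTer ratio.

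ATP8, the short subunit of ATP synthase encoded just ahead of ATP6, also stood higher in SMARTer. It had 337.7 to 868.9 CPM in SMARTer (median 477.8, highest in library 12, or 610.8 without libraries 6 and 12) and 16.9 to 217.4 CPM in TruSeq (median 117.9), again without overlap. Its level per base was 0.765 of that of ATP6 in the median SMARTer library (0.622 to 1.02) and 0.0817 in the median TruSeq library (0.0161 to 0.137). TruSeq libraries 16 and 9 were the lowest, with 16.9 and 36.9 CPM of ATP8. TruSeq library 16 was also the lowest for ND4L, with 68.5 CPM against a median of 229.9 CPM, and had the largest total count of the kit. Per base, ND4L in library 16 was at 0.122 of ND4, against a TruSeq median of 0.318 and a SMARTer median of 0.418 (0.349 to 0.541, or to 0.504 without libraries 6 and 12).

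The other mRNAs were lower in SMARTer or had overlapping ranges. ND3, a complex I subunit, had 230.1 CPM (library 6) to 570.1 CPM (library 12) in SMARTer, with a median of 338.3 CPM (268.3 to 443.2 CPM without libraries 6 and 12), and 1148 to 3344 CPM in TruSeq (median 2030). COX1, COX2 and COX3, the 3 mitochondrially encoded subunits of complex IV, also lay lower in every SMARTer library than in any TruSeq library. Thus 2 of the 13 mRNAs (ATP8 and ND6) lay wholly above and 4 wholly below, and 7 overlapped. Over the 13761 genes with a median of at least 1 CPM in either kit, 16.2% lay wholly above and 14% wholly below. Without libraries 6 and 12, 2 mRNAs lay above (ATP8 and ND6), 8 lay below and 3 overlapped (ND4L, ND5 and CYTB), beside 22.3% above and 23.1% below over all genes. The median log2 ratio of SMARTer to TruSeq was -1.12 for the 13 mRNAs and -0.12 for all genes, or -1.14 and -0.13 without libraries 6 and 12.

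12S rRNA (ENSBTAG00000043567, MT 431 to 1385) had 34302 to 116146 CPM in SMARTer (median 48341) and 157.8 to 300.7 CPM in TruSeq (median 195.6). 16S rRNA (ENSBTAG00000043570, MT 1453 to 3023) had 58312 to 222056 CPM in SMARTer (median 77149) and 217.9 to 479.6 CPM in TruSeq (median 313.4). The medians of SMARTer were thus 247 times those of TruSeq for 12S and 246 times for 16S, or 236 and 231 times without libraries 6 and 12. Library 12 was the highest SMARTer library for both, and without libraries 6 and 12 the highest levels were 62378 CPM (12S) and 94617 CPM (16S) and the medians 46157 CPM (12S) and 72280 CPM (16S). Per base, 16S stood at 1.03 times 12S in the median SMARTer library (0.801 to 1.39, or to 1.203 without libraries 6 and 12) and at 0.940 in the median TruSeq library (0.516 to 1.46), and these ranges overlapped. Set against COX1 per base, 16S stood at 9.26 in the median SMARTer library (6.22 to 14.1, the highest in library 12) and at 0.0111 in the median TruSeq library (0.00871 to 0.0165). Without libraries 6 and 12 the median of 16S over COX1 in SMARTer was 9.22 and the highest was 10.6.

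As a nuclear reference, COX1 was set against COX4I1, a nuclear-encoded subunit of the same complex. The ratio per base was 30.8 to 139.9 in the SMARTer libraries (median 49.9, also without libraries 6 and 12) and 74.6 to 143 in the TruSeq libraries (median 113.7). The lowest SMARTer ratio was that of library 6 and the highest that of library 12. Without these 2 the SMARTer range was 34.1 to 62.2, under every TruSeq library. COX4I1 itself had 77.7 to 232.1 CPM in SMARTer (100.4 to 144.9 without libraries 6 and 12) and 148 to 202.4 CPM in TruSeq.

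The tRNA genes, which supply the amino acids of mitochondrial translation and mark the cutting sites of the precursors, were counted mostly in SMARTer. In TruSeq, 7 of the 22 had 0 counts in all 18 libraries, which allows up to 0.0194 to 0.0323 CPM in a library (3 counts of its total, for counting error only). A further 11 had at most 10 counts in the median TruSeq library. The 3 with a median of at least 50 counts were the − strand gene at 7229 to 7299, which overlaps the end of COX1 by 3 bases, the + strand gene at 7304 to 7372 ahead of COX2 and the + strand gene at 15658 to 15726 behind CYTB. A tRNA gene between 2 mRNA genes, COX2 and ATP8, was instead among those with 0 counts in all 18 TruSeq libraries (8061 to 8127). In SMARTer, 15 tRNA genes had at least 100 counts in the median library. Those same 3 are the tRNA genes that reached a median of 1 CPM in both kits. The gene at 7229 to 7299 had 3.20 to 14.5 CPM in SMARTer and at most 2.725 CPM in TruSeq, without overlap, and the other 2 had overlapping ranges.

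The leading tRNA gene lay between 16S and ND1 (ENSBTAG00000043555, MT 3024 to 3098, + strand, 75 bases). It had 25.3 to 549.8 CPM in the SMARTer libraries with a median of 60.6 CPM (without libraries 6 and 12, a lowest level of 26.5 CPM and a median of 90.45 CPM), and a total of 2 counts over all 18 TruSeq libraries. It carried 15.1% to 46.4% of the tRNA counts of a SMARTer library (median 37.03%), with the lowest share in library 12. Without libraries 6 and 12 the share was 25.7% to 46.4%.

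tRNA levels varied far more between SMARTer libraries than those of the mRNAs and rRNAs, and they varied together. The summed tRNA level was 1186 CPM in library 4, 793.6 in library 5, 762.1 in library 9, 617.8 in library 13 and 529.5 in library 1. The other 11 SMARTer libraries had 103.2 to 323 CPM. The 5 libraries highest for the leading gene were also the 5 highest for 15 of the other 21 tRNA genes, and for 17 of 21 without libraries 6 and 12. Of 20 tRNA genes with a count in every SMARTer library, 16 had a highest level over 10 times the lowest, and 13 of all 22 peaked in library 4. Both counts, 16 and 13, were the same without libraries 6 and 12. The like share over all genes is not given here. Among the 16, the genes at 5551 to 5617, 11977 to 12036 and 9754 to 9822 had as few as 1, 4 and 6 counts in a library. Their ranges thus include counting error. The widest range was that of the tRNA gene between 12S and 16S (1386 to 1452), which had 1.61 to 132.1 CPM. In the same 5 libraries the 13 mRNAs took 1.97% to 2.247% of the counts. The other 11 had 1.88% to 4.27% (1.88% to 2.88% without libraries 6 and 12). Of these 11 only library 16 (1.876%) lay under the 5, and the rest lay above them, from 2.253% in library 10 upward. A relation of mRNA share to tRNA level was not tested. The rRNA genes took 10.2% to 14.9% in the 5 libraries, within the 9.78% to 33.8% of the other 11 (9.78% to 15.2% without libraries 6 and 12).

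The tRNA gene directly ahead of COX1 on the opposite strand (MT 5618 to 5685, − strand) did not follow that pattern. It had 22.4 to 78.3 CPM in SMARTer (median 38.1), with the highest level in library 12, and 22.4 to 47.4 CPM without libraries 6 and 12. Its highest level was 3.49 times its lowest, or 2.12 times without libraries 6 and 12. Only 1 of the 5 libraries highest for this gene was among the 5 highest for the leading gene. Nuclear genes of 100 bases or less, 1384 genes of the tables, summed to 6802 to 9902 CPM in the 5 libraries with the most tRNA and to 3855 to 8460 CPM in the other 11 (5042 to 8460 without libraries 6 and 12). The part of short RNA recovery in the tRNA levels was not tested.

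**Figure D3:**
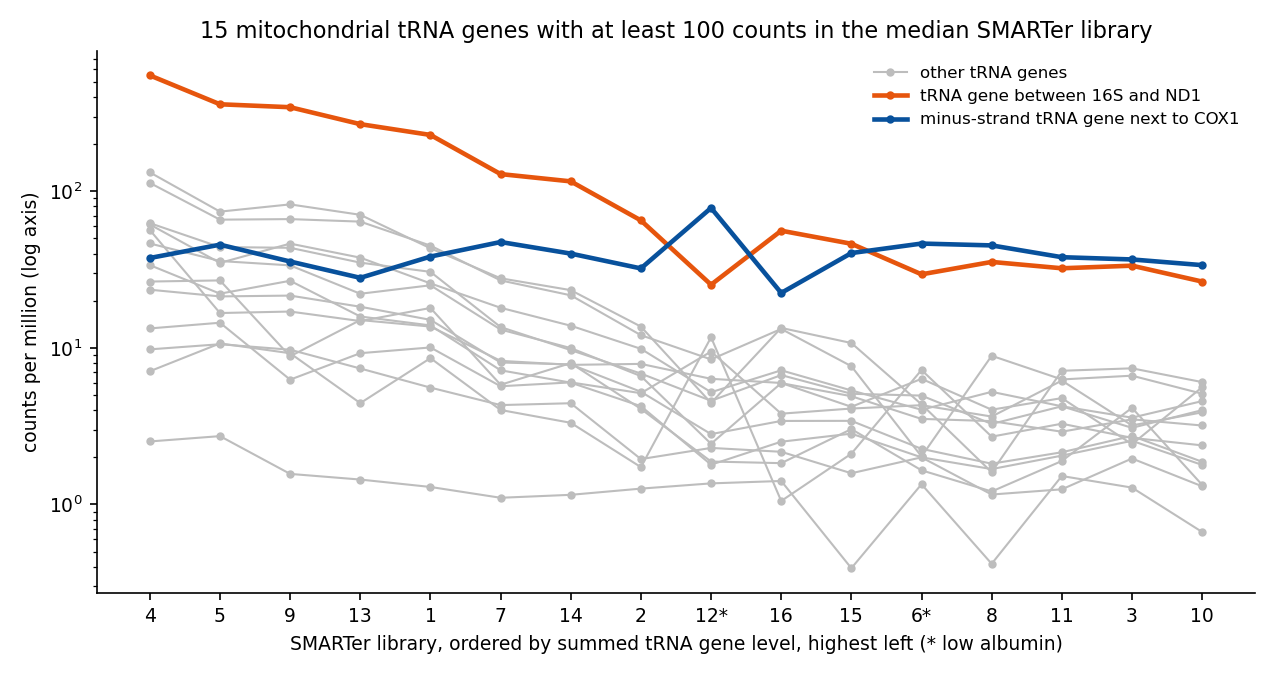
Levels in CPM (log axis) of the 15 tRNA genes with at least 100 counts in the median SMARTer library are drawn across the 16 SMARTer libraries, ordered from the highest summed tRNA level on the left. The leading gene between 16S and ND1 spans 549.8 to 25.3 CPM and most others slope with it, whereas the − strand gene next to COX1 stays between 22.4 and 78.3 CPM; asterisks mark libraries 6 and 12.

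The spread between libraries was expressed as the biological coefficient of variation (CV) of edgeR, which removes counting error and was estimated over all genes without genotype terms. Differences between genotypes are therefore inside it. Differences in RNA quality or library preparation are inside it too and cannot be told apart from those between animals. In TruSeq the 13 mRNAs had a median biological CV of 21.6% (17.1% to 45.6%), against 17.3% for the median nuclear gene and 15.1% for the median nuclear gene over 100 CPM. COX1 was the least variable at 17.1%. ATP8 (45.6%), ND6 (38.1%), ND3 (31.3%) and ND4L (30.9%) varied most, and ATP8 exceeded 94.5% of the nuclear genes. 12S and 16S rRNA had a biological CV of 20.9% and 22.4% in TruSeq.

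In SMARTer the spread depended on libraries 6 and 12. Over all 16 libraries the 13 mRNAs had a median biological CV of 28.9% (27.3% to 31.2%), against 37.9% for the median nuclear gene and 44.3% for the median nuclear gene over 100 CPM. Over the other 14 the 13 mRNAs had 15.4% (13.9% to 20.4%), against 18.97% for the median nuclear gene and 13.4% for the median nuclear gene over 100 CPM. ND6 was the least variable (13.9%) and ND4L the most (20.4%) over these 14. The rRNA genes had 36.6% (12S) and 39.0% (16S) over all 16 libraries, and 18.9% (12S) and 16.5% (16S) over the 14. For 17 tRNA genes that passed the filter on low counts, the median was 87.1% over all 16 SMARTer libraries (29.0% to 105.8%) and 78.5% over the 14 (18.9% to 95.4%). Only 4 tRNA genes passed that filter in TruSeq, with 32.5% to 41.5%.

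**Figure D4:**
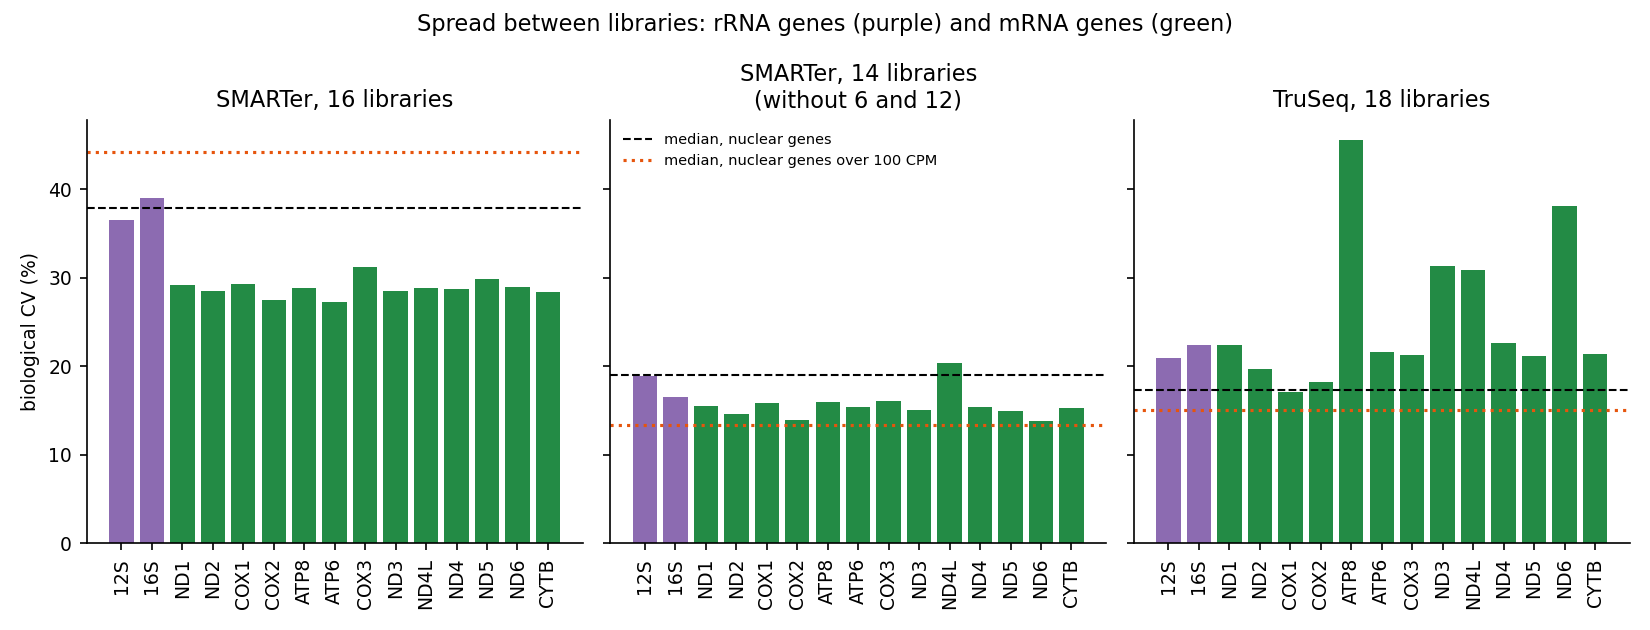
Bars give the biological CV (%) of the rRNA (purple) and mRNA (green) genes in all 16 SMARTer libraries, the 14 SMARTer libraries without 6 and 12, and the 18 TruSeq libraries, with lines at the medians of nuclear genes. In TruSeq, ATP8, ND6, ND3 and ND4L stand above the rest, whereas over the 14 SMARTer libraries the mRNAs lie between 13.9% and 20.4%.

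Whether mitochondrial genes varied together across libraries was examined for COX1 against 5 partners in each kit, 10 relations in all, with two-sided permutation tests of 100000 resamples and Benjamini-Hochberg adjustment over the 10. All were on log2(CPM + 0.5), and genes of 1 library share its total count. The p-values give how often shuffled libraries had as strong a relation. They treat the libraries of a kit as exchangeable, and genotype could not be entered. Across the SMARTer libraries, COX1 and ND6 had a Pearson r of 0.78 (permutation p = 0.00336, adjusted p = 0.0168, n = 16) and a Spearman rho of 0.55 (p = 0.0285, adjusted p = 0.191). COX1 and 16S had an r of 0.75 (permutation p = 0.00327, adjusted p = 0.0168, n = 16) and a rho of 0.50 (p = 0.0490, adjusted p = 0.191). Without the 2 libraries farthest from the median of the x measure, r fell to 0.43 (adjusted p = 0.413) for ND6 and to 0.29 (adjusted p = 0.623) for 16S, and neither passed. For 16S those 2 are libraries 6 and 12, so that relation rested on them. Without libraries 6 and 12, r was 0.58 for ND6 (permutation p = 0.0304, adjusted p = 0.152, n = 14; rho 0.68, adjusted p = 0.0930) and 0.29 for 16S (permutation p = 0.312, adjusted p = 0.520, n = 14; rho 0.29, adjusted p = 0.442). For ND6, r over these 14 without a further 2 farthest libraries was 0.73 (adjusted p = 0.0364).

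Across the TruSeq libraries, COX1 and 16S had an r of 0.61 (permutation p = 0.00692, adjusted p = 0.0231, n = 18) and a rho of 0.43 (p = 0.0765, adjusted p = 0.191). Without the 2 farthest libraries r was 0.74 (adjusted p = 0.00730). The adjusted p of this relation was 0.0692 when the SMARTer relations adjusted with it left out libraries 6 and 12. COX1 and ND6 had an r of 0.27 in TruSeq (permutation p = 0.279, adjusted p = 0.559, n = 18; rho 0.33, adjusted p = 0.352), and without the 2 farthest libraries r was 0.57 (adjusted p = 0.0906). COX1 had no relation past the threshold with COX4I1, with TFAM, a packaging and transcription factor of mitochondrial DNA, or with the total count. For these the r was -0.22 (COX4I1), 0.14 (TFAM) and -0.06 (total count) in SMARTer, and 0.09 (COX4I1), -0.07 (TFAM) and -0.37 (total count) in TruSeq, with adjusted p of 0.322 or more. Without libraries 6 and 12 the r in SMARTer was 0.07 (COX4I1), 0.37 (TFAM) and 0.16 (total count), with adjusted p of 0.473 or more. With TMM library sizes r in SMARTer was -0.54 for COX4I1 and -0.21 for TFAM, so the signs of these relations depend on the setting. The Spearman coefficients of these 6 relations ran from -0.45 to 0.24, with adjusted p of 0.191 or more.

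SLICK and FREE animals differ by 1 copy of the allele, and their liver transcripts could be compared only through the authors' deposited table. It holds 14161 genes, and its name puts slick before free. A positive log2 ratio was taken from that order to mean a higher level in SLICK, which single libraries could not check. The 18 animals it names include 17 of the TruSeq count table. The 13 mitochondrial mRNA genes are in it, whereas the rRNA and tRNA genes, 24 in all, are not. Of these 13 genes, 0 passed the threshold of 0.05 on the adjusted p given by the authors' deposited table, beside 0.501% of all its genes. At an unadjusted p under 0.05 there was 1 of the 13, ND5, beside 16% of all genes in the authors' deposited table.

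Most of the mitochondrial mRNAs had small positive log2 ratios that did not pass. In the authors' deposited table, 12 of the 13 log2 ratios of SLICK to FREE were above 0, beside 48.2% of all genes. Their median was 0.21, and that of all genes in the authors' deposited table was -0.01. The other 112 genes with an average of at least 1000 CPM, which are nearer in level, had a median log2 ratio of 0.22 in the authors' deposited table, and 88.4% of them were above 0. Cell type markers are given beside these values. The 11 hepatocyte markers measured had a median log2 ratio of 0.27 (9 above 0) and the 7 cholangiocyte markers one of -0.80 (0 above 0) in the authors' deposited table. There 8 Kupffer cell and macrophage markers had a median of 0.13 (6 above 0) and 6 stellate cell and fibroblast markers one of -0.24 (1 above 0). The 3 erythroid markers had one of 0.25 (2 above 0) at low average levels, -2.22 to -0.29 log2 CPM, in the authors' deposited table. Against these medians, CD68 stood at -0.28, PDGFRB at 0.13 and HBA at -1.17 in the authors' deposited table. The skeletal muscle marker TNNT3 stood at -0.24, and the authors' deposited table had 0 of these markers past an adjusted p of 0.05. The part of cell makeup in the mitochondrial values was not tested.

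Among the complex I subunits, ND6 had the largest log2 ratio in the authors' deposited table, 0.40, with an adjusted p of 0.513. It also had the lowest average level of the 13 there, 4.42 log2 CPM. ND5 followed with a log2 ratio of 0.32 (p = 0.0347, adjusted p = 0.276), the smallest p of the 13 in the authors' deposited table. The authors' deposited table gave ND4L 0.31, ND3 0.28, ND4 0.26, ND2 0.20 and ND1 0.14 on the same scale. CYTB, the mitochondrially encoded subunit of complex III, stood at 0.29 (p = 0.0598, adjusted p = 0.351) in the authors' deposited table. The complex IV subunits lay close together, and the authors' deposited table gave them 0.21 (COX1), 0.21 (COX3) and 0.16 (COX2).

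The ATP synthase subunits differed in sign. ATP6 stood at 0.18 (adjusted p = 0.654) and ATP8 at -0.25 (adjusted p = 0.814) on the log2 scale in the authors' deposited table, and neither passed. ATP8 is also the mRNA with the widest spread between TruSeq libraries. Over the 13 genes, the adjusted p ran from 0.276 to 0.814 in the authors' deposited table.

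**Figure D5:**
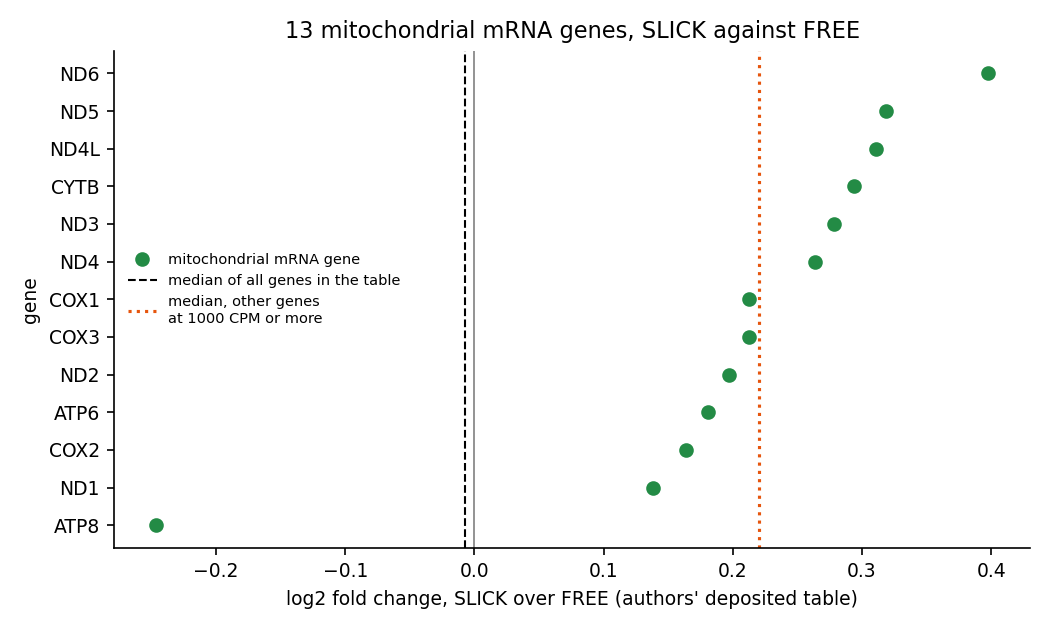
Points give the log2 fold change of SLICK over FREE for the 13 mitochondrial mRNA genes in the authors' deposited table, with lines at the medians of all genes and of the other genes at 1000 CPM or more. The points except ATP8 lie between 0.14 and 0.40, around the median of 0.22 of the abundant genes; the table gives no error bars.

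Nuclear genes whose products serve the mitochondrial genome were read as 7 lists, and the authors' deposited table had 0 of their members past an adjusted p of 0.05. From a chosen list of 41 nuclear subunits of complexes I, III, IV and V, which need not hold every such subunit, 40 were measured. Their median log2 ratio was 0.15 in the authors' deposited table. Like the other lists, this one was chosen with earlier results of these data known, and the part of that choice was not tested. Of these 40, 38 were above 0, and 20 were higher and 0 lower at an unadjusted p under 0.05, where all genes of the authors' deposited table had 48.2% above 0 and 16% under that p. The authors' deposited table gave the ATP synthase subunit ATP5MC1 0.29 (adjusted p = 0.0923) and the complex I subunit NDUFS7 0.27 (adjusted p = 0.112). COX5B of complex IV stood at 0.18 in the authors' deposited table.

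Genes that copy, process and translate mitochondrial RNA had medians near that of all genes. For 20 genes of mitochondrial DNA transcription and replication the median log2 ratio was 0.01, with 12 above 0 (48.2% of all genes) and 0 with an unadjusted p under 0.05 (16% of all genes) in the authors' deposited table. The authors' deposited table gave -0.13 for the DNA ligase LIG3, 0.11 for MTERF3, 0.12 for the DNA polymerase POLG and 0.23 for the helicase TWNK. For 41 genes of RNA processing and stability the median was -0.01 in the authors' deposited table, and 2 were higher and 5 lower at an unadjusted p under 0.05, close to the 16% of all genes. PNPT1, an exoribonuclease of mitochondrial RNA, stood at -0.68 (adjusted p = 0.112) and HSD17B10, a subunit of mitochondrial RNase P, at 0.31 (adjusted p = 0.112) in the authors' deposited table. SLIRP, an RNA-binding partner of LRPPRC, stood at 0.23 (adjusted p = 0.117) and the oligoribonuclease REXO2 at -0.31 (adjusted p = 0.178) in the authors' deposited table.

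For 22 mitochondrial tRNA synthetases the median log2 ratio was 0.02, and 4 were higher and 2 lower at an unadjusted p under 0.05, beside 16% of all genes in the authors' deposited table. GARS1, the glycyl-tRNA synthetase of cytosol and mitochondria, stood at -0.47 (adjusted p = 0.0688) and the phenylalanyl-tRNA synthetase FARS2 at 0.74 (adjusted p = 0.110) in the authors' deposited table. For 80 mitochondrial ribosomal proteins the median was 0.01 in the authors' deposited table, and 2 were higher (MRPS15 at 0.28 and MRPL28 at 0.21) and 2 lower (MRPL17 at -0.18 and MRPS18A at -0.21) at an unadjusted p under 0.05, a smaller share than the 16% of all genes. For 26 translation and assembly factors the median was 0.02 in the authors' deposited table, where SMIM20, an assembly factor of complex IV, stood at 0.24 (adjusted p = 0.144). For 17 regulators of mitochondrial biogenesis it was -0.01, with 7 above 0 and 10 below in the authors' deposited table. There the nuclear receptors PPARA and PPARD stood at 0.30 (adjusted p = 0.196) and -0.27 (adjusted p = 0.368), the deacetylase SIRT3 at 0.24 (adjusted p = 0.235) and the transcription factor subunit GABPA at 0.12 (adjusted p = 0.425), as the authors' deposited table gives them.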

How the data were processed

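The SMARTer and TruSeq counts are raw counts per gene as the authors deposited them, with gene length as a deposited annotation value. SMARTer read pairs were counted by strand with featureCounts 1.6.2 on Ensembl release 100 models and a minimum mapping quality of 10, per the file headers. ARS-UCD1.2, edgeR, Subread, featureCounts and HISAT2 2.1.0 are listed in the submitters' processing notes, without roles. Per the file headers, the authors' comparison table holds for each gene the log2 ratio and average level (log2 CPM), the F score and the p-value, raw and adjusted. The sources used here do not say whether its model held sire. A further 36 per-library columns, which no label matches, were not used.

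CPM were computed from total counts. Biological CV came from edgeR 4.0.16 in R 4.3.3 (TMM scaling, filterByExpr, intercept only, all genes), tested on simulated data. Relations used log2(CPM + 0.5) and 100000 permutations in numpy 2.4.6 (Python 3.11.15, scipy 1.17.1, pandas 2.3.3). No fit of genotype could be made from counts, and whether samples come from separate animals is known only from the animal numbers of the columns. Intervals are 95% Wilson intervals, and a count of 0 allows 3 counts. Named genes were every mitochondrial gene and, of each nuclear list, members past an adjusted p of 0.05 or up to 4 with the smallest p. A gene that this rule took is not reported here. Members and gene lists were chosen with earlier results of these data known. Marker lists held 6 cell types. Alternatives covered the denominator, scaling, filters, shrinkage, pseudocount, thresholds and libraries left out.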

Additional observations from a re-analysis of the deposited data

How the results depend on the processing

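Of the alternatives to the values that answer a comparison, 25 kept their value or count and 8 moved it. Without the mitochondrial rRNA genes the median share was 2.76% in SMARTer and 6.165% in TruSeq, which turns the order of the kits. With counts divided by gene length it was 13.5% in SMARTer and 11.6% in TruSeq, which narrows their gap. Both alternatives change what is counted. The median biological CV of the mRNAs in SMARTer was 21.1% with no shrinkage and 15.4% without libraries 6 and 12, an alternative chosen after seeing the data. For SLICK against FREE, 1 mitochondrial gene passed at an unadjusted p in the authors' deposited table, and 0 at an adjusted p of 0.10 or with the adjustment recomputed. Of the 2 SMARTer relations that passed, 1 passed with TMM library sizes, and 0 passed without the 2 farthest libraries or without libraries 6 and 12; the cause of the difference with TMM was not tested. No paired analysis was made, as the labels name no pairs and the SMARTer and TruSeq libraries had 0 animal numbers in common. Low counts did not limit the mRNA and rRNA values, but they limited 18 tRNA genes in TruSeq, with at most 10 counts in the median library. The TruSeq libraries had the larger median total, and the cause of these low counts was not tested.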
